A study of Oryza sativa with 12 samples.

Results

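The genes described here are 10 core cell cycle genes of rice (Oryza sativa), defined by a list of identifiers: the clamp gene PCNA, the A-type cyclin genes CYCA3-1 and CYCA1-1, the B-type cyclin genes CYCB1-1, CYCB1-5, CYCB2-1 and CYCB2-2, and the cyclin-dependent kinase genes CDKB1-1, CDKB2-1 and CDKA-1. The deposited tables list 32552 identifiers, and 9 of the 10 were measured. CYCB1-5 (Os05g0493500) was not analysed here. RNA was sequenced from leaf primordia, the young leaves forming at the shoot apex, in 12 libraries of 3 each from 4 groups. WT is the cultivar Nipponbare. The group ospin1c ospin1d is labelled as a knockout of OsPIN1c and OsPIN1d, which encode PIN carriers that export auxin from cells. The groups ospid C1 and ospid C2 are both labelled as a knockout of OsPID, a PINOID-type kinase that phosphorylates PIN proteins. Plant age and whether a library came from separate plants or a pool are not stated, and each p-value therefore reflects only the spread among libraries, which may be technical. All plants were in vegetative growth under a day of 15 h at 28 °C followed by a night of 9 h at 24 °C. The labels name no second line of ospin1c ospin1d, so loss of the carriers and other traits of that line cannot be told apart. The edited genes were not checked, because the tables pair no identifier with a name. The names of the 10 genes come with the identifiers that define the set.

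Cyclins are proteins whose levels rise and fall through the cell cycle and that activate cyclin-dependent kinases at set phases. In plants CDKA is present through the cycle, whereas B-type kinases, which animals and yeast lack, act around the passage from G2 into mitosis. B-type cyclins are made shortly before mitosis and destroyed in it, and PCNA and A3-type cyclins belong to the onset and course of DNA replication. Leaf primordia hold many dividing cells, and auxin carried by PIN proteins positions new primordia.

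The 12 libraries held 15211547 to 16422849 reads, worked out from the steps between the deposited FPKM values (fragments per kilobase of gene, scaled to library depth). The first principal component, with 35.3% of the variance, placed ospid C2 replicate 1 at 6.79 and the other 5 ospid libraries at 25.7 to 56.4. WT and ospin1c ospin1d lay at -38.3 to -27.7, so ospid C2 replicate 1 was the ospid library nearest to WT, and the changes in ospid C2 are given with and without it. For 4 identifiers entered as leaf primordium markers (YABBY and DROOPING LEAF genes), all 4 reached 1 FPKM in at least 1 library of every group. Their summed level was 53.6 to 66.1 FPKM in WT, 41.9 to 49.7 in ospin1c ospin1d, 59.9 to 84.1 in ospid C1 and 62.1 to 75.9 in ospid C2. Of 3 meristem KNOX identifiers, 1 stayed under 1 FPKM in all groups, and the sum was 243 to 308 FPKM in WT and 278 to 297 in ospin1c ospin1d, against 200 to 241 in ospid C1 and 177 to 232 in ospid C2. Markers of the meristem and of primordia were thus both measured.

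In wild type the 9 genes spanned a wide range of levels. PCNA (Os02g0805200, chromosome 2 by its identifier) was the most abundant at 714 ± 99.9 FPKM (SD, n = 3), rank 192 among all identifiers in WT. CDKB2-1 (Os08g0512600, chromosome 8), a mitotic kinase found only in plants, followed at 351 ± 22.5 FPKM, and CYCB1-1 (Os01g0805600, chromosome 1), a cyclin widely used as a marker of cells entering mitosis, at 213 ± 10.1 FPKM. CYCB2-1 (Os04g0563700, chromosome 4) stood at 126 ± 7.83 FPKM, CYCB2-2 (Os06g0726800, chromosome 6) at 89.8 ± 3.56 and CDKB1-1 (Os01g0897000, chromosome 1) at 70.7 ± 7.43. CYCA3-1 (Os03g0607600, chromosome 3) was at 39.3 ± 5.57 FPKM. The lowest levels were those of CYCA1-1 (Os01g0233500, chromosome 1) at 17.4 ± 2.19 FPKM and CDKA-1 (Os03g0118400, chromosome 3) at 13.2 ± 2.53 FPKM, whose WT libraries overlapped. No other neighbours in this order overlapped in WT. FPKM is scaled by gene length, so these levels can be compared between genes. Read numbers per library ran from 221 to 345 for CDKA-1 and from 8178 to 15908 for PCNA, so counting error was widest for CDKA-1. How reads of near-identical gene copies were counted is not stated.

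**Figure D1:**
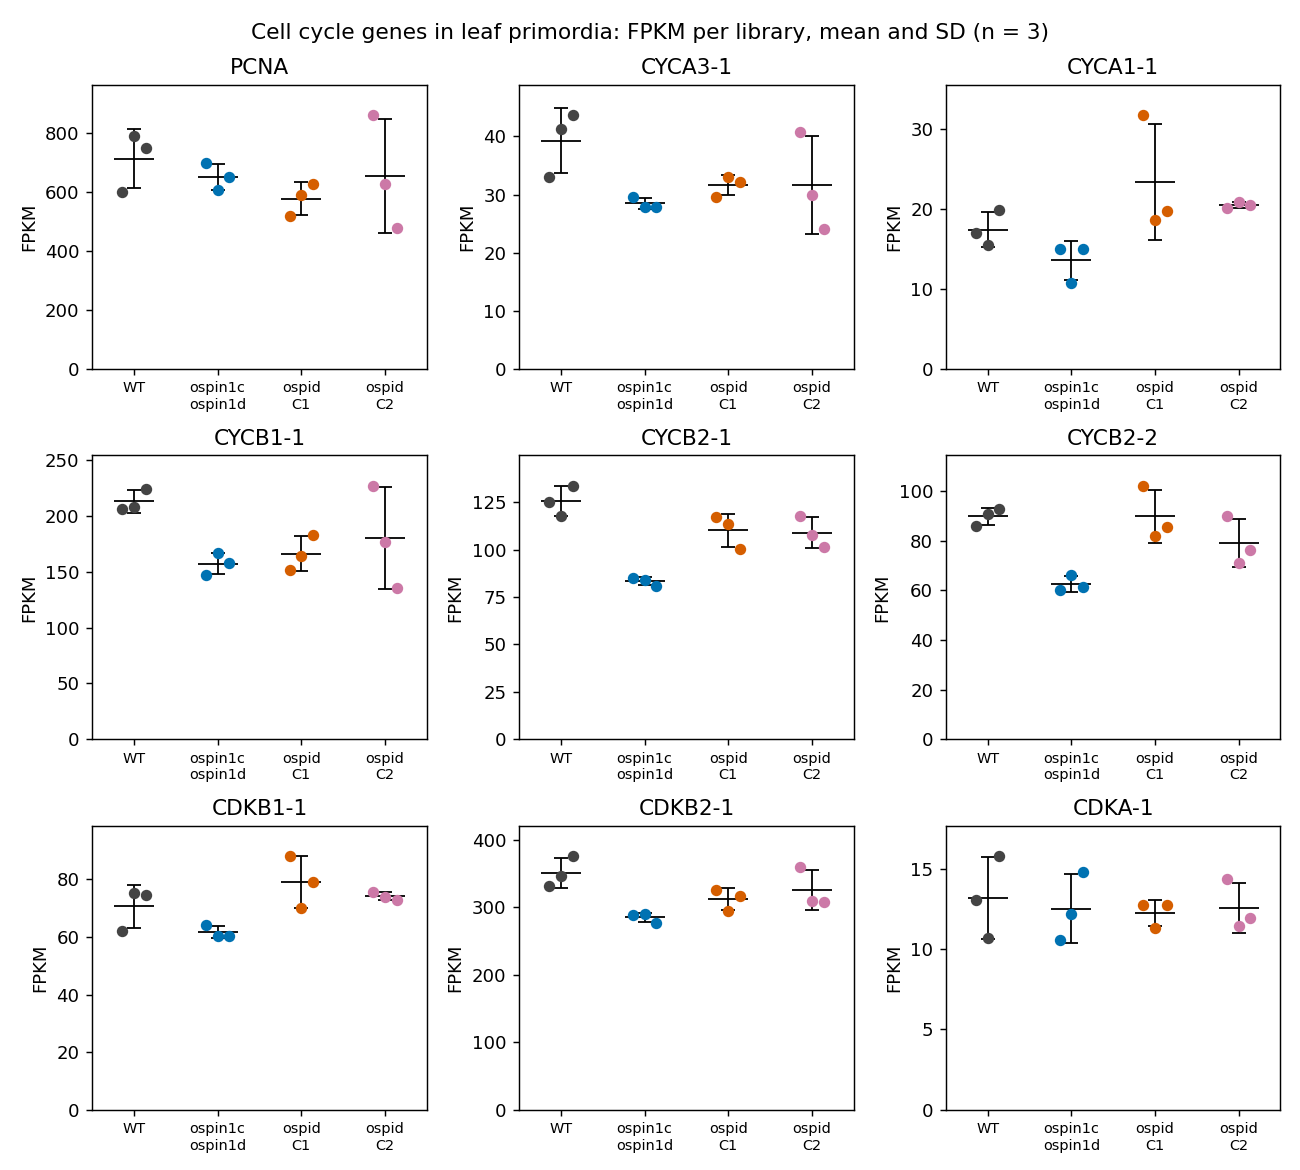
Each panel plots 1 gene, with FPKM on a linear axis from 0 and the 4 groups along the bottom. Points are libraries, the wide bar is the mean and the whiskers are the SD (n = 3). In the panels of CYCB2-1 and CYCB2-2 the ospin1c ospin1d libraries, at 81.0 to 85.0 and 60.3 to 66.4 FPKM, lie below every library of the other groups.

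The first comparison set primordia labelled as lacking both carriers against WT, whose 3 libraries also serve the ospid comparisons. The B2-type cyclin genes CYCB2-1 and CYCB2-2 fell, each by about the same share of its WT level, and the other 7 genes did not pass the test. CYCB2-1 stood at 125, 118 and 134 FPKM in the WT libraries and at 85.0, 83.9 and 81.0 FPKM in ospin1c ospin1d. The groups did not overlap, and the ospin1c ospin1d libraries lay within a few FPKM of each other. The difference of the means was -33.7% of the WT mean, and the log2 change was -0.59 on the log2(FPKM + 1) scale (SE 0.0903, limma adjusted p = 0.00576). Here and below, adjusted p is from limma, a linear model fitted to 21250 identifiers, with Benjamini-Hochberg adjustment and a threshold of 0.05. CYCB2-2, a cyclin that in rice was found in complex with the kinase CDKB2-1, stood at 85.9, 90.7 and 92.8 FPKM in WT and at 60.3, 66.4 and 61.4 FPKM in ospin1c ospin1d. All 3 mutant libraries lay below all 3 of WT, and the log2 change was -0.51 (SE 0.110, limma adjusted p = 0.0355). The call for CYCB2-2 was lost when any single library of these groups was left out (limma adjusted p 0.0672 to 0.140), without ospid C1 replicate 3 (0.0524), and with median-ratio scaling (0.0591) or quantile normalization (0.0512). That for CYCB2-1 held with each library left out (limma adjusted p 0.00410 to 0.0395).

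The third B cyclin, CYCB1-1, stood at 206, 208 and 224 FPKM in WT and at 147, 167 and 157 FPKM in ospin1c ospin1d. These groups did not overlap either, but the log2 change of -0.44 did not pass (95% confidence interval -0.77 to -0.10, limma adjusted p = 0.178). When the fit held only ospin1c ospin1d and WT, the SE dropped from 0.153 to 0.0817 and the limma adjusted p was 0.0342. In that fit 1.38% of all identifiers were called lower and 2.53% higher, in place of 0.984% and 1.32%. The libraries of ospid C2 spread from 136 to 227 FPKM for CYCB1-1, more widely than those of WT.

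Of the mitotic kinases, CDKB2-1 was at 331, 347 and 375 FPKM in WT and at 289, 289.6 and 276 FPKM in ospin1c ospin1d, again without overlap. Its log2 change was -0.30 (limma adjusted p = 0.105). CDKB1-1, the B-type kinase of lower abundance, was at 62.1, 75.3 and 74.7 FPKM in WT and at 64.2, 60.5 and 60.4 FPKM in ospin1c ospin1d. The groups overlapped through WT replicate 1, and the log2 change was -0.19 (95% confidence interval -0.42 to 0.04, limma adjusted p = 0.403).

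The genes tied to DNA replication differed from each other in the size of their values. CYCA3-1 was at 33.0, 41.2 and 43.6 FPKM in WT and at 29.6, 27.9 and 27.9 FPKM in ospin1c ospin1d, with no overlap and a log2 change of -0.44 (limma adjusted p = 0.207). PCNA, the sliding clamp of DNA polymerase, was at 601, 791 and 749 FPKM in WT and at 698, 609 and 652 FPKM in ospin1c ospin1d. Its groups overlapped, and its log2 change of -0.12 had a 95% confidence interval of -0.52 to 0.28. CYCA1-1, a cyclin of the class active from S phase into mitosis, was at 17.0, 15.5 and 19.8 FPKM in WT and at 15.0, 10.7 and 15.0 FPKM in ospin1c ospin1d, again without overlap but with a narrow gap (log2 change -0.35, limma adjusted p = 0.406). CDKA-1 was at 13.0, 10.7 and 15.8 FPKM in WT and at 10.6, 12.2 and 14.8 FPKM in ospin1c ospin1d, with libraries of both groups interleaved (log2 change -0.06, 95% confidence interval -0.41 to 0.28).

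In all, 2 of 9 genes were called lower and 0 higher in ospin1c ospin1d, while over all 21250 identifiers tested 0.984% were called lower and 1.32% higher. At an unadjusted p under 0.05, 5 of the 9 passed, beside 16.3% of all identifiers. Groups did not overlap for 6 of the 9, all lower in ospin1c ospin1d, beside 12.9% of all identifiers lower and 12.6% higher without overlap. The 9 log2 changes were all negative with a median of -0.35, beside a median of -0.01 over all identifiers. Of the 27 values of these genes in ospin1c ospin1d, 26 lay below the WT mean of the gene, the exception being CDKA-1 in replicate 3. The 9 genes share libraries and are not independent of each other. In bulk tissue, fewer dividing cells and less RNA per cell cannot be told apart.

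Marker levels moved with the same comparison. The primordium sums given above did not overlap, being lower in ospin1c ospin1d, and all 4 log2 changes were negative with a median of -0.38, although 0 of 4 passed. The summed level of 2 identifiers entered as light-harvesting genes of green leaf tissue was 1187.5 to 2055 FPKM in WT, 3174 to 4555 in ospin1c ospin1d, 1646 to 3483 in ospid C1 and 2330 to 3806 in ospid C2. In ospin1c ospin1d 1 of the 2, Os01g0600900, was called higher, as it was in ospid C2 (limma adjusted p = 0.0399 and 0.0290). Over all identifiers 1.32% and 4.0% were called higher in these groups. The 3 identifiers entered as Rubisco small subunit genes, which also mark green leaf tissue, were near 0, with sums of 1.14 to 2.21 FPKM in WT, 2.84 to 3.77 in ospin1c ospin1d, 0.694 to 1.63 in ospid C1 and 0.765 to 2.40 in ospid C2. How reads of near-identical gene copies were counted is not stated, so these low values do not show that Rubisco transcripts were absent. The part of these markers in the cyclin values was not tested.

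**Figure D2:**
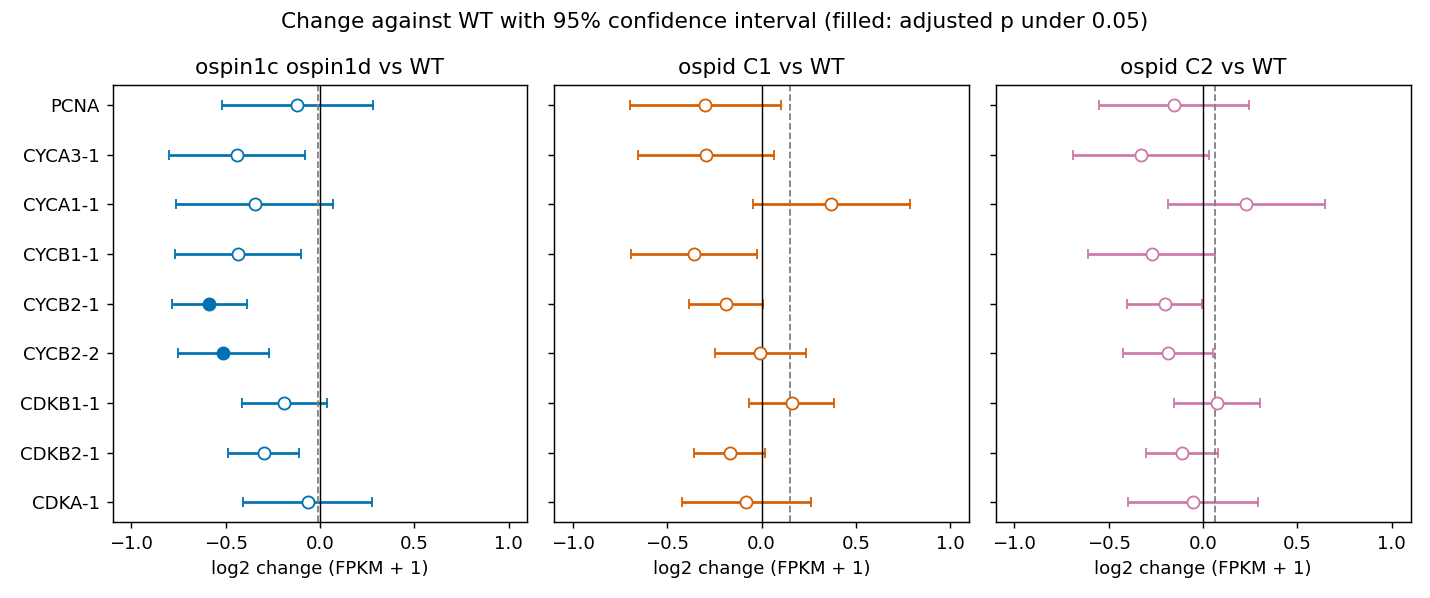
Log2 change of each gene against WT on the log2(FPKM + 1) scale, with 1 panel per mutant group. Points are the fitted changes, bars the 95% confidence intervals, filled points have an adjusted p under 0.05, and the dashed line is the median over all identifiers tested (-0.01, 0.15 and 0.06). Only CYCB2-1 and CYCB2-2 in ospin1c ospin1d are filled.

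The ospid lines were compared with WT to see whether these genes differ in primordia labelled as lacking the kinase. In ospid C1, 0 of 9 genes passed by limma, while 10.2% of all identifiers were called higher and 5.3% lower. At an unadjusted p under 0.05, 1 of the 9 passed, beside 35.8% of all identifiers. The shares of all identifiers called depend on the scaling and on single libraries: they were 5.93% higher and 9.0% lower with median-ratio scaling, and 2.33% and 2.11% without ospid C1 replicate 1. Voom on the recovered reads also called 0, beside 12.4% of all identifiers higher and 5.79% lower. Groups did not overlap for 4 of the 9, all lower, beside 11.4% of all identifiers lower and 28.4% higher without overlap. CYCB1-1 was lowest relative to WT, at 152, 164 and 183 FPKM against 206 to 224 FPKM. The libraries did not overlap, and the log2 change was -0.36 (95% confidence interval -0.69 to -0.02, limma adjusted p = 0.118). Without ospid C2 replicate 1 or replicate 3 in the fit, where the SE was 0.111 and 0.110 in place of 0.153, CYCB1-1 was called lower in ospid C1 (limma adjusted p = 0.0427 and 0.0457). In these fits 6.7% and 6.15% of all identifiers were called lower, and 15.6% and 12.5% higher. CYCB2-1 was at 117, 113 and 100.2 FPKM in ospid C1, below the WT libraries (log2 change -0.19, limma adjusted p = 0.154).

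CYCB2-2, which fell in ospin1c ospin1d, had nearly the same mean in ospid C1 as in WT. Its libraries were at 102, 81.8 and 85.4 FPKM, on both sides of the WT libraries, and the 95% confidence interval of its log2 change was -0.25 to 0.23. CDKB2-1 was at 325, 294 and 316 FPKM, below WT without overlap (log2 change -0.17, limma adjusted p = 0.179), and CDKB1-1 at 88.0, 70.0 and 79.3 FPKM, overlapping WT (log2 change 0.16, limma adjusted p = 0.285). PCNA at 517, 590 and 626 FPKM and CYCA3-1 at 29.6, 33.0 and 32.2 FPKM had log2 changes of -0.30 each, with limma adjusted p of 0.257 and 0.214.

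CYCA1-1 was the gene with the highest change in ospid C1, and 1 library decided its size. It was at 31.7, 18.6 and 19.7 FPKM there against 15.5 to 19.8 FPKM in WT (log2 change 0.37, limma adjusted p = 0.183). Without ospid C1 replicate 1 the log2 change was 0.14. CDKA-1 was at 12.7, 11.3 and 12.8 FPKM, within the range of WT (log2 change -0.08, 95% confidence interval -0.42 to 0.26).

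The median log2 change of all identifiers in ospid C1 was 0.15 as deposited and near 0 after median-ratio scaling, which rescales each library to the median gene. With that scaling the changes in ospid C1 were -0.54 for CYCB1-1 (limma adjusted p = 0.0899), -0.37 for CYCB2-1 (0.0505), -0.35 for CDKB2-1 (0.0678) and -0.02 for CDKB1-1 (0.907), and 0 of 9 genes were called. As deposited, the median of the 9 genes was -0.17.

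In ospid C2 again 0 of 9 genes passed by limma, beside 4.0% of all identifiers called higher and 6.01% lower. At an unadjusted p under 0.05, 1 of the 9 passed, CYCB2-1, beside 26.5% of all identifiers. Voom called 0. Without overlap, 1 of 9 was higher and 1 lower, beside 15.4% and 13.8% of all identifiers. CYCB2-1 was at 118, 108 and 102 FPKM, below every WT library (log2 change -0.20, 95% confidence interval -0.40 to -0.01, limma adjusted p = 0.177). CYCB2-2 was at 90.1, 71.2 and 76.2 FPKM, and only its replicate 1 lay among the WT libraries (log2 change -0.19, limma adjusted p = 0.301). CYCA1-1 was at 20.1, 20.9 and 20.6 FPKM, above every WT library (log2 change 0.23, limma adjusted p = 0.462).

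Replicate 1 of ospid C2 was the highest of its group for 8 of 9 genes, and replicate 3 the lowest for 6 of 9. The order in WT ran the other way by replicate number, with replicate 3 the highest for 7 of 9 and replicate 1 the lowest for 6 of 9. PCNA was at 861, 627 and 478 FPKM in ospid C2, the widest spread of any gene and group in FPKM. CYCB1-1 was at 227, 177 and 136 FPKM and CYCA3-1 at 40.7, 30.0 and 24.0 FPKM, with replicate 1 within or above the WT range and the other libraries below it. Over all 3 libraries the log2 changes were -0.27 for CYCB1-1 (limma adjusted p = 0.276) and -0.33 for CYCA3-1 (0.226). Without replicate 1 they were -0.46 (limma adjusted p = 0.0326) and -0.52 (0.0271). In that fit 2 of 9 genes were called lower in ospid C2, beside 6.51% of all identifiers called lower and 9.69% higher. Replicate 1 was the highest library of ospid C2 for both genes, so leaving it out deepens both changes. Without replicate 3, the lowest for both, they were -0.087 (limma adjusted p = 0.754) and -0.15 (0.632). Then 0 of 9 genes were called lower, beside 3.59% of all identifiers lower and 1.5% higher. The kinases varied less in ospid C2 than PCNA, CYCB1-1 and CYCA3-1, and so did CYCA1-1, CYCB2-1 and CYCB2-2. CDKB2-1 was at 359, 309 and 308 FPKM, CDKB1-1 at 75.8, 73.8 and 73.0 FPKM and CDKA-1 at 14.4, 11.4 and 11.96 FPKM, all overlapping WT, with log2 changes of -0.11, 0.07 and -0.05. Without replicate 1 these were -0.18, 0.06 and -0.15, and those of the other genes were -0.37 for PCNA, 0.24 for CYCA1-1, -0.26 for CYCB2-1 and -0.28 for CYCB2-2, none of the 7 past the threshold (limma adjusted p 0.0848 to 0.750).

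**Figure D3:**
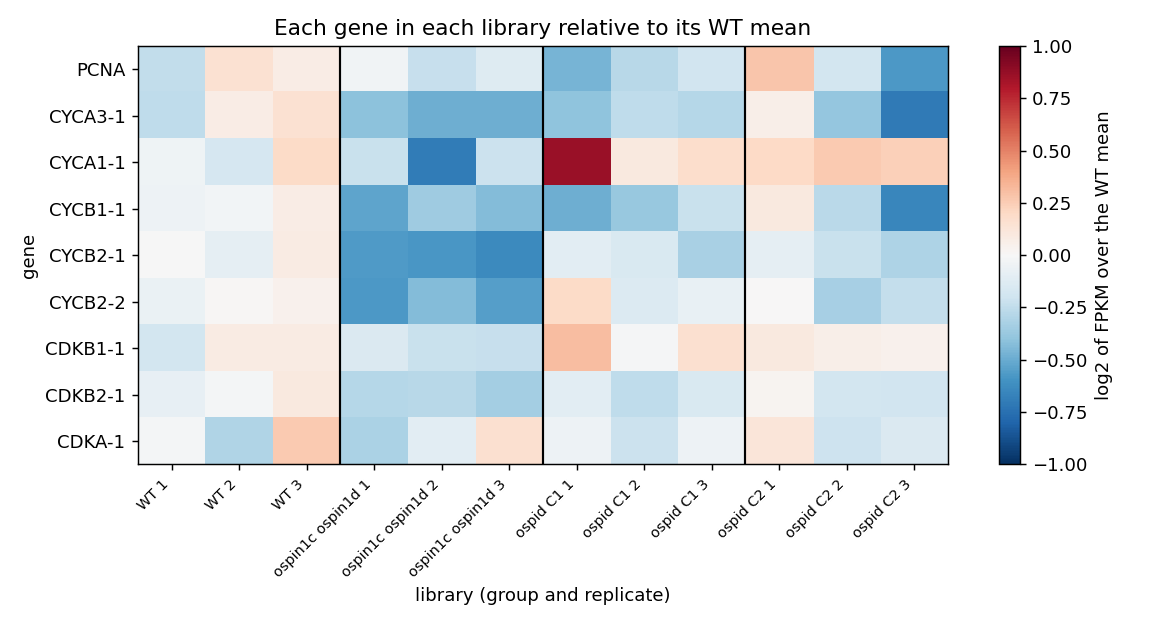
Rows are the 9 genes and columns the 12 libraries, labelled by group and replicate. Colour is the log2 of a library's FPKM over the mean of the 3 WT libraries, blue below and red above. The ospin1c ospin1d columns are blue in 26 of 27 cells, and in ospid C2 replicate 1 is higher than the others for 8 of 9 genes.

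Both ospid lines carry the same genotype label, and they were compared with each other. By limma 0 of 9 genes differed, beside 0.00941% of all identifiers called lower in ospid C2 and 0.0% higher. Voom called 0, beside 0.0% of all identifiers in each direction. At an unadjusted p under 0.05, 0 of the 9 passed, beside 10.5% of all identifiers. The log2 differences, ospid C2 minus ospid C1, ran from -0.18 for CYCB2-2 (95% confidence interval -0.42 to 0.06) to 0.14 for PCNA (-0.26 to 0.54). For all 9 genes the libraries of both lines overlapped, while 3.43% of all identifiers were higher and 11.6% lower in ospid C2 without overlap.

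A direct test of whether the mutants differ set the average of ospid C1 and ospid C2 against ospin1c ospin1d. CYCA1-1, CYCB2-1, CYCB2-2 and CDKB1-1 were higher in the ospid lines, and 0 of 9 genes were lower. Over all identifiers 12.2% were called higher and 6.96% lower, and 9.17% and 9.97% with median-ratio scaling. These 4 genes did not overlap between the 6 ospid and the 3 ospin1c ospin1d libraries, nor did CDKB2-1, so 5 of 9 were higher and 0 lower without overlap, beside 13.7% and 7.76% of all identifiers. The median log2 difference was 0.16 over the 9 genes and 0.09 over all identifiers.

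The 6 ospid libraries had CYCB2-1 at 109.6 ± 7.65 FPKM (SD), from 100.2 to 118 FPKM, and those of ospin1c ospin1d at 81.0 to 85.0 FPKM. The log2 difference was 0.39 (SE 0.0782, limma adjusted p = 0.00767). CYCB2-2 stood at 84.5 ± 10.9 FPKM (SD, n = 6), from 71.2 to 102 FPKM, against 60.3 to 66.4 FPKM, a log2 difference of 0.42 (SE 0.0952, limma adjusted p = 0.0134). All 6 ospid libraries lay above ospin1c ospin1d for both B2-type cyclin genes. The call for CYCB2-2 was lost without ospin1c ospin1d replicate 1 or replicate 3 (limma adjusted p = 0.0572 and 0.0556).

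For CYCA1-1 the ospid libraries averaged 21.9 ± 4.85 FPKM (SD, n = 6) against 13.6 ± 2.45 FPKM in ospin1c ospin1d (SD, n = 3). The log2 difference was 0.65 (SE 0.165, limma adjusted p = 0.0211), and this held with each scaling but not without ospin1c ospin1d replicate 2 (0.114), the library with the lowest CYCA1-1 level. CDKB1-1 stood at 76.7 ± 6.37 FPKM (SD, n = 6) against 61.7 ± 2.14 (SD, n = 3), a log2 difference of 0.31 (SE 0.0894, limma adjusted p = 0.0357). Its call was lost when any of 7 single libraries was left out, all 3 of ospin1c ospin1d and replicates 1 and 3 of ospid C1 and 2 and 3 of ospid C2, with limma adjusted p up to 0.128.

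The scaling between libraries bears on this comparison, since median-ratio scaling moved the median of all identifiers from 0.09 to -0.0061. With median-ratio scaling only CYCA1-1 was called (log2 difference 0.53, limma adjusted p = 0.0267). The differences of CYCB2-1 (0.27, 0.0779), CYCB2-2 (0.30, 0.0846) and CDKB1-1 (0.19, 0.186) kept their direction and did not pass. With quantile normalization all 4 passed, and CDKB2-1 as well (0.23, limma adjusted p = 0.0487), beside 11.7% of all identifiers called higher and 8.98% lower.

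The other genes showed no difference that passed as deposited. CDKB2-1 averaged 319 ± 22.4 FPKM over the ospid libraries against 285 ± 7.31 in ospin1c ospin1d (limma adjusted p = 0.152). CYCB1-1 was at 173 ± 31.4 against 157 ± 9.60 FPKM, with a 95% confidence interval of -0.17 to 0.41 on the log2 scale. The intervals were -0.18 to 0.44 for CYCA3-1, -0.45 to 0.24 for PCNA and -0.30 to 0.29 for CDKA-1. Marker levels moved in this comparison too. In the ospid lines 2 of 4 primordium identifiers were called higher, beside 12.2% of all identifiers. Called lower were 1 of 2 tested KNOX identifiers and the 1 tested Rubisco identifier, beside 6.96% of all identifiers. Both light-harvesting identifiers had negative log2 differences that did not pass, with a median of -0.52. The part of these markers in the values was not tested.

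**Figure D4:**
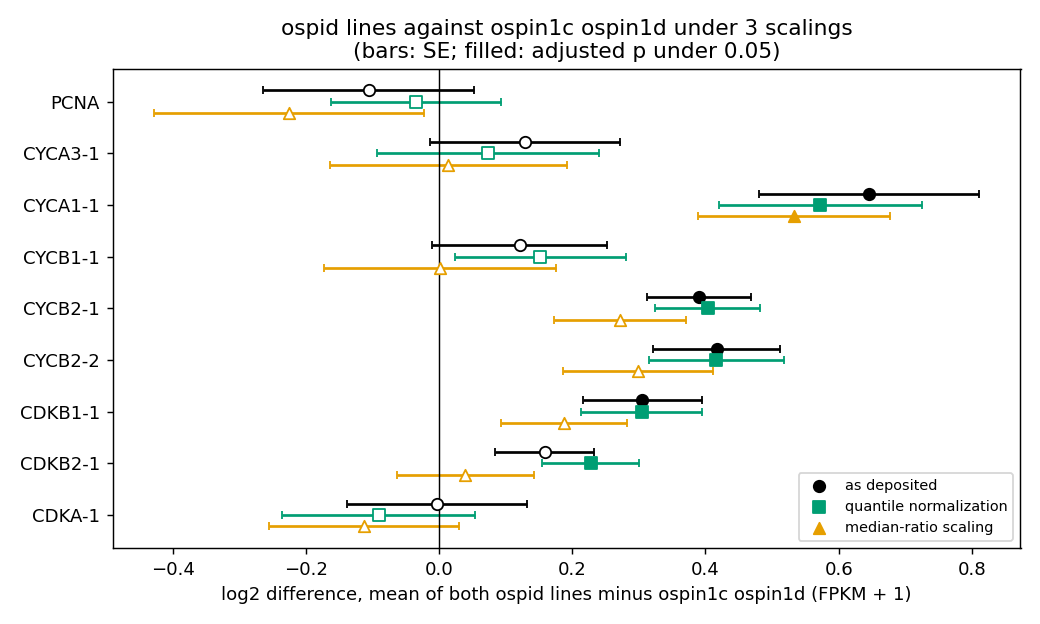
Log2 difference between the mean of both ospid lines and ospin1c ospin1d for each gene on the log2(FPKM + 1) scale, with bars for the SE, under 3 scalings of the libraries. Filled symbols have an adjusted p under 0.05. CYCA1-1 is filled under all 3 scalings, and the points for median-ratio scaling lie left of those as deposited.

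Other genes of the cell cycle were described from a list of 39 identifiers entered from general knowledge of the rice annotation in 6 groups, of which 38 had a value and 36 were tested. The deposited tables do not name them, so the groups are those under which they were entered. In ospin1c ospin1d, 0 of 36 were called in either direction by limma, beside 1.32% of all identifiers higher and 0.984% lower, and 31 of 36 log2 changes were negative, with a median of -0.23 beside -0.01 over all identifiers. In the group of replication licensing and dNTP supply genes, which prepare and feed DNA synthesis, the median was -0.28 with 10 of 11 negative. In the group of D-type cyclins, which act on entry into the cycle, it was -0.23 with 8 of 9 negative.

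In ospid C1, 2 of the 36 were called higher and 3 lower, beside 10.2% and 5.3% of all identifiers, with a median of 0.10 beside 0.15 over all identifiers. In ospid C2, 1 was called higher and 4 lower, beside 4.0% and 6.01% of all identifiers, with a median of -0.09 beside 0.06. In the D-type cyclin group 3 of 9 were called in ospid C1 and 3 of 9 in ospid C2, against the same WT libraries, with 1 higher and 2 lower in each line, to be read beside the same shares. Os09g0382300 rose from 31.9 ± 3.75 FPKM in WT to 71.2 ± 20.9 (ospid C1) and 60.8 ± 18.0 (ospid C2; SD, n = 3; limma adjusted p = 0.0142 and 0.0378), and stood at 30.2 ± 3.80 in ospin1c ospin1d. Os03g0203800 fell from 54.3 ± 6.51 FPKM in WT to 29.6 ± 1.38 and 26.0 ± 1.63 (limma adjusted p = 0.00824 and 0.00274). Os09g0111100 fell from 57.1 ± 1.03 FPKM to 41.8 ± 2.62 and 33.7 ± 3.40 (limma adjusted p = 0.0212 and 0.00168). Outside that group, Os12g0502300, entered among the other cyclins, rose in ospid C1 (log2 change 0.51, limma adjusted p = 0.0468). Os12g0158800, entered under RBR and E2F, fell there (log2 change -0.49, limma adjusted p = 0.0313), and 1 identifier of that group was called lower in ospid C2. Os11g0614800, entered under CDK inhibitors, fell in ospid C2 (log2 change -0.65, limma adjusted p = 0.0412). Called members of the D-type cyclin group thus moved in opposite directions in the ospid lines. With 9 identifiers in each set, these counts do not set the D-type cyclins apart from the named genes.

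Against ospin1c ospin1d, 6 of the 36 were higher and 2 lower in the ospid lines, beside 12.2% and 6.96% of all identifiers, with a median of 0.25 beside 0.09. The 6 comprised 3 of 11 in the licensing and dNTP supply group, 2 of 5 in the group of other cyclins, CDKA-2, CKS1 and WEE1, and 1 of 9 D-type cyclins. In the licensing group Os05g0476200 stood at 14.8 ± 2.52 FPKM in ospin1c ospin1d, 27.3 ± 5.60 for ospid C1 and 21.5 ± 0.332 for ospid C2 (SD, n = 3; log2 difference 0.67, limma adjusted p = 0.0111). The groups of CDK inhibitors, which block cyclin-dependent kinases, and of RBR and E2F genes, which gate entry into S phase, had 0 of 5 called each in this comparison.

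**Figure D5:**
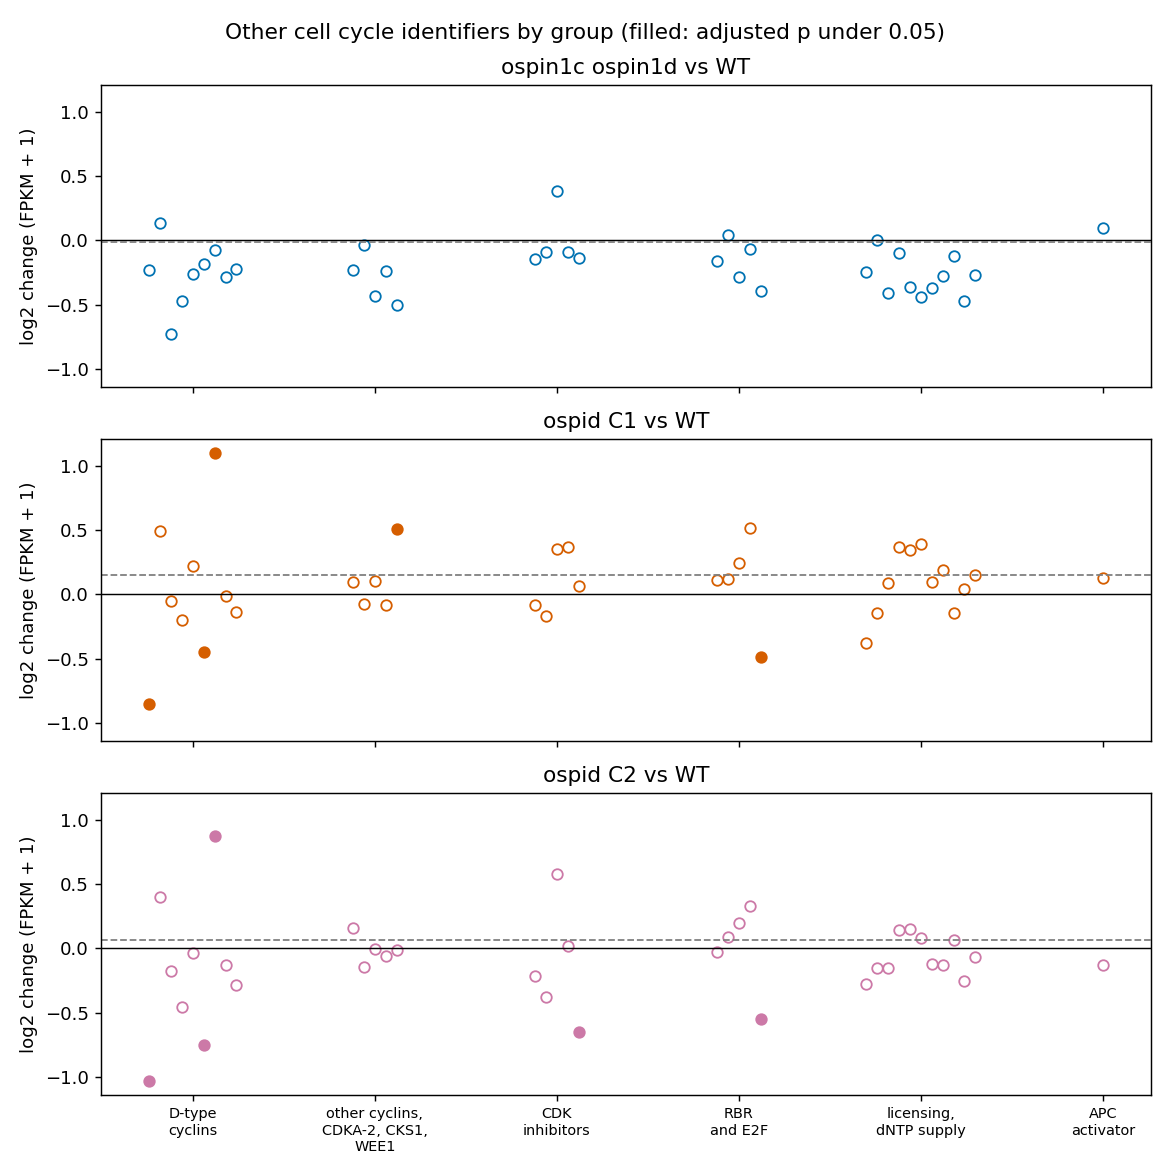
Each point is 1 of the 36 tested identifiers of the wider list, placed by the group under which it was entered, with its log2 change against WT on the log2(FPKM + 1) scale. Filled points have an adjusted p under 0.05 and the dashed line is the median over all identifiers. The panel of ospin1c ospin1d has 0 filled points and 31 points below 0, and those of ospid C1 and ospid C2 have 5 filled points each.

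The patterns of the genes over the 12 libraries were compared by the root-mean-square distance between standardised log2(FPKM + 1) profiles, which is 0 for the same shape. CYCA3-1 and CYCB1-1 were closest (0.440), followed by CYCB2-1 and CYCB2-2 (0.50) and by CYCB2-1 and CDKB2-1 (0.535). From the mean profile of the 5 measured mitotic genes, CDKA-1 lay at 1.18 and PCNA at 1.15, ranks 4422 and 3860 by closeness among 20002 identifiers with a mean of at least 1 FPKM. CYCA1-1 lay at 0.928 (rank 1115) and CYCA3-1 at 0.678 (rank 189). CYCA3-1 was thus closer than CYCB1-1 (0.737) and CDKB1-1 (0.764), which are themselves part of that mean profile. Among the 20002 identifiers, the 4 non-members closest to it were Os04g0228100 (0.355), Os01g0706000 (0.389), Os10g0368400 (0.409) and Os07g0608400 (0.450). Os04g0228100 was at 102 ± 15.6 FPKM in WT, 73.2 ± 3.03 in ospin1c ospin1d, 101 ± 4.83 for ospid C1 and 90.4 ± 11.4 for ospid C2 (SD, n = 3). The libraries share depth and scaling across genes, and the deposited tables give no name for these identifiers.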

How the data were processed

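The authors deposited 12 tables, each with an identifier and an FPKM value per the file headers. Tools listed per the submitters' processing notes, without roles, are HTSeq 0.6.0, HISAT2 2.1.0 and Bowtie2 2.2.3; the listed build is IRGSP-1.0. The strand setting of the counting is not stated, so overlapping antisense reads cannot be told apart. Libraries were made from 2 µg of total RNA per the labels. Groups and replicate numbers come from the titles. Names were those given with the 10 identifiers. In a RefSeq table of the assembly ASM3414082v1, 9 of the 10 names stand on the chromosome that the identifier gives. Of the 39 names entered for the wider list, 28 stand in that table, and 25 of these on the chromosome of the identifier. The coordinates of that table were not used because the builds differ.

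FPKM values were tested with limma 3.58.1 in R 4.3.3 on log2(FPKM + 1), which understates changes of low genes, with a mean-dependent prior, for identifiers reaching 1 FPKM in 3 libraries or more, in 1 fit of all 12 libraries. All 9 measured genes passed this filter. The script was tested on simulated data, with added log2 changes larger than any found for the 9 genes. That test therefore does not show how often changes of the size reported here are missed. Reads were recovered from FPKM steps: at the total found, 100% of the gene lengths checked came out whole to within 0.05 bases, and at other totals a median of 9.83% did. Depth was 15211547 to 16422849 reads, so 1 read in a gene of 1 kb is worth 0.0609 to 0.0657 FPKM.

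All 10 genes of the rule are described; of the wider list at most 4 identifiers per comparison, those called with the largest change and no overlap, could be named, and a few of these are. Os09g0111100 in ospid C1 was named after its values were seen. The members and lists were chosen with earlier results of these data known. Alternatives were median-ratio scaling, quantile normalization, other filters, a pseudocount of 0.1, only the groups compared, a replicate block, a log2 change of at least 1, voom on recovered reads, and each library left out. The profile comparison used the 5 measured genes of the 6 planned mitotic ones, since CYCB1-5 had no value.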

Additional observations from a re-analysis of the deposited data

Results flagged for a closer look

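For 4 genes the change against WT differed between the mutants by a direct limma test of the mean of both ospid lines minus ospin1c ospin1d, on the log2 scale. The difference was 0.65 for CYCA1-1, the A1-type cyclin gene, 0.31 for CDKB1-1, the less abundant B-type kinase gene, 0.39 for CYCB2-1 and 0.42 for CYCB2-2, the B2-type cyclin genes. All 6 ospid libraries lay above all 3 ospin1c ospin1d libraries for each of the 4. Over all identifiers 12.2% were called higher in this comparison. With 1 of the 12 libraries left out, the call held in 12 fits for CYCB2-1, 11 for CYCA1-1, 10 for CYCB2-2 and 5 for CDKB1-1. With median-ratio scaling only CYCA1-1 was called, beside 9.17% of all identifiers called higher.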

How the results depend on the processing

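Over 21 alternative settings, 914 of 945 results for single genes kept their direction and 878 also their side of the threshold. A call was lost in 30 and gained in 6. The log2 change could not move with other filters, only the groups compared, the replicate block or a required log2 change of 1. Nor could it move when the library left out came from a group not compared. Direction was fixed in advance there, so 914 of 945 does not measure how firm the directions are. The 31 that changed direction had adjusted p of at least 0.632. For ospin1c ospin1d against WT, 2 genes were called lower; the number was 1 with median-ratio scaling, quantile normalization or the replicate block, and 0 when a log2 change of 1 was also required. For the ospid lines against ospin1c ospin1d, 4 were called higher, beside 12.2% of all identifiers. The number was 1 with median-ratio scaling, beside 9.17%, and 0 with the fold requirement, beside 1.39%. That requirement lowers counts by construction; otherwise the cause was not tested. With single libraries left out, these counts ran from 1 to 2 and from 2 to 4, and the counts called lower against WT from 0 to 1 in ospid C1 and from 0 to 2 in ospid C2.

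Log2 changes that turned sign were small. Against WT in ospid C1, CYCB2-2 was 0.012 with quantile normalization and CDKB1-1 was -0.022 with median-ratio scaling. For ospid C2 minus ospid C1, median-ratio scaling gave 0.079 for CYCA3-1, 0.098 for CYCB2-1 and 0.027 for CDKB1-1, and quantile normalization gave 0.049 for CYCA3-1. With single libraries left out, CDKA-1 ran from -0.19 to 0.064 in ospin1c ospin1d, -0.21 to 0.047 in ospid C1 and -0.18 to 0.076 in ospid C2 against WT. It ran from -0.064 to 0.090 between the ospid lines and -0.11 to 0.12 against ospin1c ospin1d. CYCB2-2 in ospid C1 ran from -0.10 to 0.057, and in ospid C2 PCNA ran from -0.37 to 0.052 and CDKB1-1 from -0.015 to 0.12. Between the ospid lines the ranges were -0.073 to 0.35 for PCNA, -0.23 to 0.14 for CYCA3-1, -0.28 to 0.092 for CYCA1-1, -0.097 to 0.27 for CYCB1-1, -0.081 to 0.035 for CYCB2-1 and -0.016 to 0.096 for CDKB2-1.

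Over all identifiers, leaving out single libraries gave 2.33% to 15.6% called higher in ospid C1, 1.5% to 9.69% in ospid C2 and 3.64% to 18.7% in the ospid lines against ospin1c ospin1d. Called lower against WT were 0.426% to 1.42% in ospin1c ospin1d, 2.11% to 6.7% in ospid C1 and 3.59% to 6.51% in ospid C2.

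Replicate numbers did not pair libraries: deviations of 18 same-numbered pairs correlated at -0.23 to 0.069, and 3 of 12 libraries correlated best with their own number. The replicate block took the calls over all identifiers in ospin1c ospin1d from 281 to 189 higher and from 209 to 136 lower. In ospid C1 it took them from 2166 to 1289 higher and from 1127 to 852 lower. Among the genes described it ended the calls of CYCB2-2 against WT (adjusted p = 0.0676, limma) and of CDKB1-1 against ospin1c ospin1d (0.0644). With 3 libraries a group, changes near the threshold rest on single libraries, and counting error is widest for CDKA-1, at 221 to 345 reads per library.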

Other observations

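Ratios of FPKM within a library, which need no scaling between libraries, were computed for pairs of the genes and are given as values without a test. CYCA1-1, an A1-type cyclin gene, over CYCA3-1, an A3-type cyclin gene tied to S phase, was 0.514, 0.376 and 0.454 in WT and 0.506, 0.385 and 0.538 in ospin1c ospin1d. It was 1.07, 0.565 and 0.612 in ospid C1, above every WT library, and 0.494, 0.695 and 0.856 in ospid C2, where replicate 1 lay within the WT range. The ratio of CDKB1-1 to CDKB2-1, the B-type kinase genes, was 0.188, 0.217 and 0.199 in WT and 0.222, 0.209 and 0.219 in ospin1c ospin1d. It was 0.270, 0.238 and 0.251 in ospid C1, without overlap with WT, and 0.211, 0.239 and 0.237 in ospid C2, where replicate 1 lay within the WT range. The summed level of the 3 measured B cyclin genes was set over that of PCNA, the replication clamp gene. This ratio was 0.694, 0.527 and 0.602 in WT and 0.419, 0.521 and 0.460 in ospin1c ospin1d, with a narrow gap and no overlap. It was 0.717, 0.609 and 0.588 in ospid C1 and 0.505, 0.567 and 0.656 in ospid C2, both overlapping WT. These ratios were chosen, from more that were computed, with the levels of the genes known. The share of other gene pairs without overlap was not worked out.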
